A study of Mus musculus with 6 samples.

Results

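The genes described here are the 8 genes that build and load the mouse MHC class II molecule (H2-Aa, H2-Ab1, H2-Eb1, Cd74, H2-DMa, H2-DMb2, H2-Oa and H2-Ob) and 2 regulators, Ciita and March1. They were taken by name, 10 of the 32285 features in the deposited count table, and all 10 passed the filter on low counts in all 6 libraries. RNA came from sorted cDC1s (type 1 conventional dendritic cells), which are best known for cross-presenting antigen to CD8 T cells. The cells were from the mLN of C57BL/6 mice, all of which had received 50 µg HDM, a house dust mite allergen extract, intranasally 24 h before. Of the libraries, 3 were from conditional Vps33b knockout mice, labelled Vps33BdeltaDC (KO), and 3 were from wild-type mice (WT). The sources used here name neither the promoter that drives the deletion nor the age of the mice, and every group had HDM. Nothing in the labels says that each library is a separate mouse, so each p-value weighs a difference against variation among these libraries alone, and that variation may be technical.

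MHC class II molecules carry peptides of endocytosed antigen to the cell surface, where CD4 T cells read them. An alpha and a beta chain assemble around the invariant chain, and lysosomal proteases trim that chain to a short peptide. The H2-DM heterodimer exchanges it for antigen peptide, and H2-DO holds H2-DM in check. CIITA, a co-activator that does not itself bind DNA, switches the whole group on through proteins that sit on a shared promoter module of X and Y boxes. MARCH1, a membrane ubiquitin ligase, tags the beta chain and sends surface class II to lysosomes. In mature dendritic cells both the transcription of Ciita and the level of March1 are known to go down, while peptide-loaded class II stays at the surface.

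Of the 4 promoters below, H2-Eb1 and H2-DMb2 are shown because they hold an X-to-Y module as searched here. H2-Aa and H2-Ob are shown because they did not match that rule but hold ATTGG, 48 and 57 bases before the start site. Promoter windows of RefSeq (GRCm38.p6) were matched for 7 of the 10 genes, and the 250 bases before each start site were searched on both strands. The motifs were ATTGG (the Y box, bound by NF-Y), ACNGATG (the end of the X box, bound by RFX) and TGACG (the core of the X2 box, bound by CREB). Capitals mark these motifs in the 120 bases that end 26 bases before the start site, 5′ to 3′ on the strand of the gene.
H2-Aa: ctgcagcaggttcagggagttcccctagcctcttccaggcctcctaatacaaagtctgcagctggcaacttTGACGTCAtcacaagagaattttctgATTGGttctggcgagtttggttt
H2-Eb1: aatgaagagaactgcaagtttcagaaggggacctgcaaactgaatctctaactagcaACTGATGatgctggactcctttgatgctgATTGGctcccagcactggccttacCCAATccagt
H2-DMb2: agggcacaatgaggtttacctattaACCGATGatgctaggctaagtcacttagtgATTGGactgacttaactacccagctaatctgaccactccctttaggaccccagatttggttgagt
H2-Ob: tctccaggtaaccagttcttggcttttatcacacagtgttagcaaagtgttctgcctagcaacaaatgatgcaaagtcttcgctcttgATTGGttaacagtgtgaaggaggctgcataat
These stretches lie at chr17:34287849-34287968 on the minus strand (H2-Aa) and, on the plus strand, at chr17:34305722-34305841 (H2-Eb1), chr17:34145104-34145223 (H2-DMb2) and chr17:34238760-34238879 (H2-Ob).

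The 4 printed promoters were chosen for ATTGG, alone or within the module, so its presence in all 4 is no result. In each it lay on the gene's own strand, between 43 and 90 bases before the start site when H2-Oa, not printed, is counted. ATTGG was present on either strand in 33.8% of the 32851 start-site windows of all genes. That share is background and is not compared with the 4 chosen promoters. H2-Eb1 and H2-DMb2 also held ACNGATG, with gaps of 22 and 23 bases to the ATTGG that follows, and the H2-Eb2 and H2-DMb1 promoters had the same gaps of 22 and 23 bases. ACNGATG followed by ATTGG on the same strand after 10 to 40 bases occurred in 70 of all windows, or 0.213%. H2-Aa held TGACG on both strands as the overlapping run TGACGTCA, and TGACG was present in 17.8% of all windows. H2-Oa had ACNGATG (8.31% of all windows) too far from its ATTGG for that rule. The minus strand of H2-Aa held a further ACNGATG, 232 bases upstream. H2-DMa had no motif at 1 start site and only ATTGG, 198 bases upstream, at the other. Of the March1 start sites, 2 had ATTGG, at 163 and 199 bases upstream, and none had ACNGATG or TGACG. These matches describe letters in the windows and do not show that a factor binds there.

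The libraries held between 11755944 and 17434247 counts in KO and between 14949229 and 18450678 in WT. Levels are given in CPM, counts per 1000000 after scaling. Vps33b, the deleted gene, was at 4.997 to 8.29 CPM in KO and at 13.8 to 19.1 CPM in WT, with no overlap (edgeR adjusted p = 0.834). All 10 cDC1 markers, among them Xcr1, Clec9a, Irf8 and Batf3, were detected in each library. Markers of other cells ranged widely. Cd3e of T cells was at 3.35 to 6.53 CPM, Trac at 5.29 to 12.8 CPM and Lck at 10.3 to 19.6 CPM. Of 7 tested markers of pDCs (plasmacytoid dendritic cells), 5 were lower and 2 higher in KO, and 0 passed after adjustment. At an unadjusted p under 0.05 (edgeR) 2 of the 7 were lower, beside 3.06% of all genes tested. Siglech was at 0 to 3.33 CPM in KO and 3.85 to 12.6 CPM in WT, without overlap, as for 5.19% of all genes tested. Of the 8 cDC2 markers, Cd209a was at 0 in 5 of the 6 libraries. Sirpa, Esam and Irf4 of that list were at 13.7 to 35.3, 50.7 to 88.2 and 78.8 to 181 CPM. Itgam reached 11.5 CPM, and Clec10a, Mgl2 and Clec4a4 at most 1.85 CPM. Lyz2 of monocytes and macrophages was at 129 to 468 CPM in KO and 106 to 192 CPM in WT, and Ighm of B cells at 86.3 to 390.3 CPM in KO and 149 to 255 CPM in WT. These levels exceed those of Xcr1, at 5.72 to 11.4 CPM in KO and 13.1 to 44.6 CPM in WT. They lie below those of Irf8, at 1244 to 1741 CPM in KO and 1328 to 1481 CPM in WT. Batf3 was at 143.5 to 164.8 CPM in KO and 123.7 to 175.6 CPM in WT. Clec9a was at 50.8 to 66.4 CPM in KO and 61.9 to 85.5 CPM in WT. WT replicate 2 stood apart in several results below, which are therefore given with and without it.

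None of the 10 genes passed the test between KO and WT. March1, at 31.0% of the WT level, and H2-Ob, at 53.1%, had the lowest KO levels relative to WT. The edgeR quasi-likelihood test, adjusted over 12568 genes at a threshold of 0.05, called 0 genes (0%). Without adjustment 725 genes were past 0.05, and DESeq2 called 10 genes with it. March1 and H2-Ob were lower in KO at an unadjusted p under 0.05, 2 of 10 members, where 3.06% of all genes tested were lower and 2.71% higher at that level. That count was 0 of 10 without KO replicate 1 and without WT replicate 1, and 1 of 10 without KO replicate 3 and with limma-voom. The 8 structural genes had a median log2 fold change of -0.19, beside 0.00 over all genes tested, and it was 0.18 without WT replicate 2.

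**Figure D1:**
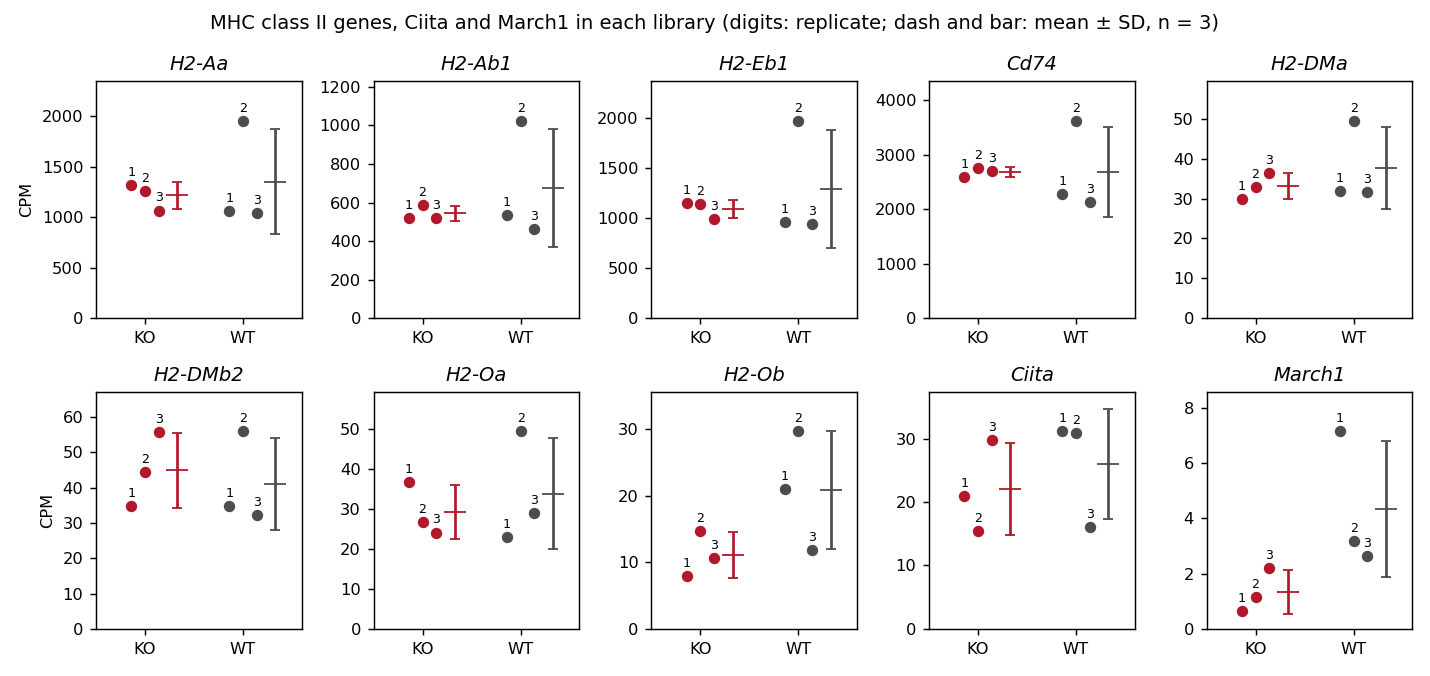
Level of each gene in each library, in CPM on a linear axis from 0, with KO left of WT, digits for replicates, and the mean ± SD of 3 libraries as a dash with a bar. WT replicate 2 is the highest of the 6 libraries for all 8 structural genes, and March1 alone shows 2 groups that do not overlap.

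The classical chains and the invariant chain stood among the most abundant transcripts of these cells. Per kilobase of exon, Cd74 (invariant chain) averaged 1598 CPM per kb over the 6 libraries, above 99.9% of the genes tested. H2-Eb1 (the beta chain of I-E) followed at 615, H2-Aa (the alpha chain of I-A) at 338 and H2-Ab1 (the beta chain of I-A) at 237 CPM per kb, and this order held in all 6 libraries. The place of H2-Eb1 above H2-Aa rests on the exon lengths used, 1944 and 3798 bases. In CPM, not divided by length, H2-Aa was above H2-Eb1 in every library but WT replicate 2. C57BL/6 mice are known to lack surface I-E because the alpha chain gene H2-Ea is defective, so H2-Eb1 is transcribed without its partner. H2-Ea was not analysed here.

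H2-Ab1 (ENSMUSG00000073421, chromosome 17, 34257689 to 34269419, mm10, plus strand) had 520, 589 and 522 CPM in the KO libraries, against 533, 1025 and 464.5 CPM in the WT libraries. The 3 KO libraries lay close together and between WT replicates 2 and 3, so the groups overlapped. The means were 544 ± 39.2 CPM in KO and 674 ± 306 CPM in WT (SD, n = 3 each), a log2 fold change of -0.31 ± 0.28 (SE) with an edgeR adjusted p of 0.901. The 95% interval of -0.96 to 0.34 leaves room for a difference in either direction.

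H2-Aa (chromosome 17, 34282744 to 34287823, minus strand) had 1321, 1264 and 1067 CPM in KO and 1060, 1958 and 1042 CPM in WT. Its log2 fold change was -0.15 ± 0.24, with an adjusted p of 0.944. H2-Eb1 (chromosome 17, 34305867 to 34316674, plus strand) had 1153, 1141 and 989 CPM in KO and 964.5, 1976 and 944.6 CPM in WT, with a log2 fold change of -0.24 ± 0.28 and an adjusted p of 0.922. In both genes 1 WT library was above, and the other 2 below, every KO library. Without WT replicate 2 the log2 fold changes were 0.21 ± 0.13 for H2-Aa, 0.12 ± 0.13 for H2-Ab1 and 0.19 ± 0.13 for H2-Eb1, and none of the 3 passed (adjusted p = 0.778, 0.876 and 0.78, edgeR).

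Cd74 had 2591, 2764 and 2709 CPM in KO, against 2271, 3628 and 2137 CPM in WT. The means were almost equal, at 2688 ± 88.3 CPM in KO and 2679 ± 825 CPM in WT, but WT libraries spread far more widely than KO libraries. The log2 fold change was 0.01 ± 0.19, with a 95% interval of -0.40 to 0.41, and 0.28 ± 0.12 without WT replicate 2 (adjusted p = 0.745). The sign of so small a value turned under 9 of 17 alternatives, RLE and upper-quartile scaling among them.

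Ratios within a library set the classical genes against each other. The ratio of H2-Aa to H2-Ab1, per kilobase, was 1.72, 1.45 and 1.38 in KO and 1.34, 1.29 and 1.52 in WT. Cd74 stood at 7.62, 7.18 and 7.94 times H2-Ab1 in KO and at 6.52, 5.41 and 7.04 times in WT, and these groups did not overlap. The ratio was chosen after its values were seen and has no test.

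H2-DM, the peptide exchanger, was transcribed at far lower levels than the molecules it serves. H2-DMa, its alpha chain, averaged 10.3 CPM per kb and H2-DMb2, a beta chain, 24.6 CPM per kb over the 6 libraries. H2-DMa had 29.9, 32.9 and 36.5 CPM in KO and 31.9, 49.6 and 31.7 CPM in WT (log2 fold change -0.18 ± 0.21, edgeR adjusted p = 0.917). H2-DMb2 had 34.7, 44.4 and 55.9 CPM in KO and 34.9, 56.0 and 32.2 CPM in WT, with a log2 fold change of 0.14 ± 0.24. Unlike in the classical genes, KO replicate 3 here reached the level of WT replicate 2.

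H2-DMb1, the neighbouring beta chain gene, had 35.9, 37.1 and 47.4 CPM in KO and 46.6, 58.2 and 36.7 CPM in WT. Of the 100-base windows of H2-DMb2 transcripts, 10.3% are also found in H2-DMb1, so reads could be split between them. H2-DMa shares 10.4% of its exonic bases with Brd2 on the opposite strand, which stood at 444 to 531 CPM in KO and 508 to 547 CPM in WT. The sources used here do not say whether reads were counted by strand, so the count of H2-DMa is uncertain.

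H2-DO, the inhibitor of H2-DM, showed different values for its chains. H2-Oa, the alpha chain, had 36.8, 26.8 and 24.1 CPM in KO and 23.0, 49.4 and 29.1 CPM in WT, a log2 fold change of -0.19 ± 0.28. H2-Ob (ENSMUSG00000041538, chromosome 17, 34238903 to 34254414), the beta chain, had 7.89, 14.7 and 10.7 CPM in KO and 21.1, 29.7 and 11.9 CPM in WT. KO replicate 2 lay above WT replicate 3, so the groups overlapped, and the other 2 KO libraries lay below every WT library. The mean was 11.1 ± 3.43 CPM in KO and 20.9 ± 8.89 CPM in WT, so KO held 53.1% of the WT level. The log2 fold change was -0.87 ± 0.35 with a 95% interval of -1.64 to -0.10, an unadjusted p of 0.0309 and an adjusted p of 0.834 (edgeR). It was -0.55 ± 0.33 without WT replicate 2. The unadjusted p (edgeR) was 0.116, 0.0698, 0.0646 and 0.128 without KO replicate 1, KO replicate 3, WT replicate 1 and WT replicate 2. Without KO replicate 2 the log2 fold change was -1.18, with an unadjusted p of 0.0194 and an adjusted p of 0.9999 (edgeR). Without WT replicate 3 it was -1.16, with an unadjusted p of 0.00286 and an adjusted p of 0.917 (edgeR).

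Against H2-DMb2, an H2-DM beta chain, H2-Ob stood at 0.0739, 0.108 and 0.0620 per kilobase in KO and at 0.196, 0.172 and 0.120 in WT. Every KO ratio lay below every WT ratio, a comparison chosen after the values were seen and not tested. The groups overlapped against H2-DMb1, the other beta chain gene. KO replicate 2 had 2.74 CPM per kb of H2-Ob to 22.1 of H2-DMb1, and WT replicate 3 had 2.21 to 21.8. Against its own partner H2-Oa, H2-Ob stood at 0.0561, 0.144 and 0.116 in KO and at 0.240, 0.157 and 0.107 in WT, and these groups overlapped. H2-DMb2 was itself at 0.929, 1.15 and 1.14 times H2-DMb1 in KO and at 0.721, 0.926 and 0.846 times in WT. Every KO ratio was above every WT ratio, but 0.929 only just above 0.926, and this comparison too has no test. H2-Oa to H2-DMa gave 3.01, 1.998 and 1.62 in KO and 1.76, 2.44 and 2.25 in WT, which overlapped. Exons of H2-Oa share 22.8% of their bases with the antisense gene BC051537, which had at most 21 counts in any library, against at least 273 for H2-Oa.

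Ciita, the co-activator of the whole group, was nearly as high in WT replicate 2, where the structural genes peaked, as in WT replicate 1, its highest library. Ciita (ENSMUSG00000022504, chromosome 16, 10480059 to 10528418) had 21.0, 15.4 and 29.7 CPM in KO and 31.2, 30.8 and 15.99 CPM in WT. High and low libraries occurred in both groups, with KO replicate 3 and WT replicates 1 and 2 near 30 CPM. The log2 fold change was -0.26 ± 0.30, with a 95% interval of -0.93 to 0.41 and an edgeR adjusted p of 0.922. Per kilobase it stood at 2.52 CPM, against 237 for H2-Ab1. H2-Ab1 was 91.9, 142 and 65.2 times Ciita in KO libraries and 63.5, 123 and 108 times in WT libraries, and the groups overlapped.

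March1 was the member with the largest difference between the groups and the lowest level. The gene (ENSMUSG00000036469, chromosome 8, 65617900 to 66471637) had 0.652, 1.17 and 2.20 CPM in KO, against 7.14, 3.18 and 2.65 CPM in WT. Every KO library lay below every WT library, which held for 5.19% of all genes tested, and WT replicate 1 stood far above the other 5 libraries. These values rest on 9, 20 and 25 counts in KO and on 130, 47 and 50 counts in WT. KO held 31.0% of the WT mean, a log2 fold change of -1.76 ± 0.60 with a 95% interval of -3.08 to -0.44. The unadjusted p was 0.0134 and the adjusted p 0.834 (edgeR), and an exact two-sided permutation test of log2 CPM gave p = 0.1, the smallest that 3 against 3 libraries allow.

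The size of the March1 difference depended on single libraries. It was -1.17 ± 0.61 on the log2 scale without WT replicate 1 and -2.22 ± 0.72 without KO replicate 3. WT replicate 1 and KO replicate 3, the highest March1 library of each group, also had the highest sum of 10 monocyte and macrophage markers. That sum was 177, 158 and 609 CPM in KO and 323, 184 and 200 CPM in WT. Lyz2 made 468 of the 609 CPM and 192 of the 323 CPM. Of the 10 markers, 7 were lower and 3 higher in KO. Cd14 was at 3.48 to 10.6 CPM in KO and 14.9 to 28.4 CPM in WT, without overlap, as for 5.19% of all genes tested. Within WT, Cd14 (28.4 CPM) and Ly6c2 (13.5 CPM) were instead highest in replicate 2 and Ccr2 (5.35 CPM) in replicate 3. Ly6c2 was highest of all in KO replicate 1, at 14.3 CPM. Csf1r, a macrophage receptor in that list, had 11.4, 9.81 and 48.8 CPM in KO and 52.6, 18.7 and 22.7 CPM in WT. In the list, 2 markers (Fcgr1 and Mertk) were at 0 in 1 KO library each and none in WT. Without WT replicate 1 and KO replicate 3 the March1 value was -1.63 ± 0.70 (edgeR adjusted p = 0.9997). The part of monocytes and macrophages in the difference within all 6 libraries was not tested. In bulk RNA, fewer cells of a type and less RNA per cell cannot be told apart. Exons of March1 share 7.64% of their bases with the antisense gene Gm15354, which was at 0 counts in all 6 libraries.

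**Figure D2:**
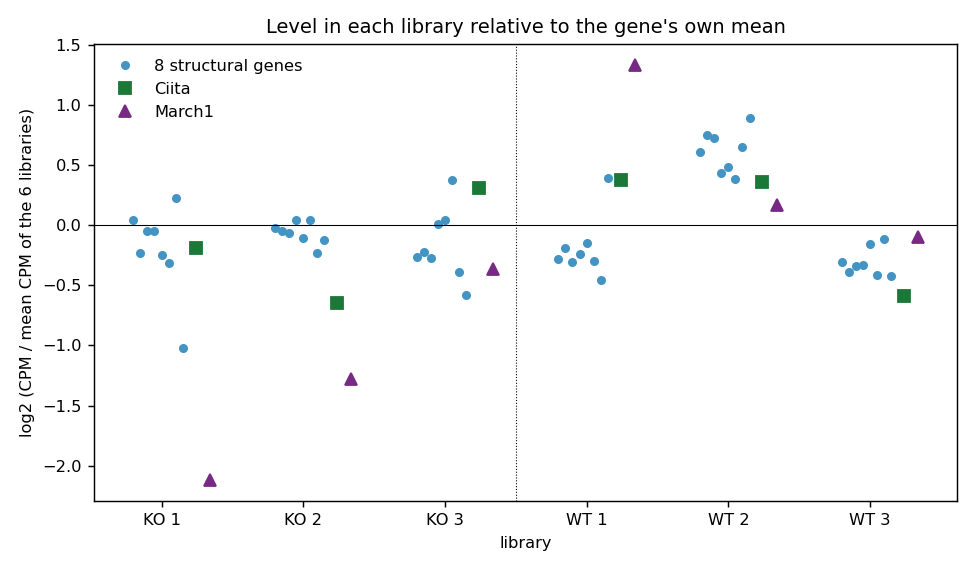
Level in each library on the log2 scale relative to the gene's mean CPM over the 6 libraries, with KO libraries left of the dotted line and WT libraries right of it; circles are the 8 structural genes, squares Ciita and triangles March1. The circles sit together above 0 in WT 2, whereas the triangles are lowest in KO 1 and highest in WT 1.

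Set against the structural genes as a group, March1 and Ciita had other profiles over the libraries, though Ciita was also high in WT replicate 2. The mean centred log2 level of the 8 structural genes was -0.15, -0.01 and -0.11 in KO and -0.14, 0.67 and -0.26 in WT. March1 relative to that mean was at -1.43, -0.83 and 0.12 in KO and at 1.78, -0.16 and 0.51 in WT, and the groups overlapped. Ciita relative to it was at 0.02, -0.57 and 0.48 in KO and at 0.58, -0.24 and -0.26 in WT. The log2 fold change of March1 minus the structural median was -1.57, and that of Ciita minus the structural median was -0.07, neither with a test. Leaving out 1 library at a time gave -2.10 to -0.81 for March1 and -0.39 to 0.26 for Ciita.

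All 8 structural genes had their highest level in WT replicate 2, which was the highest library for 18.4% of all genes tested. Its level stood at 1.95 times the mean of the other 5 libraries for H2-Ab1, 1.90 times for H2-Eb1, 1.70 times for H2-Aa and 1.45 times for Cd74. For H2-Ob the factor was 2.24 and for H2-DMb2 1.39, the widest and the narrowest of the 8. H2-DMb1 and H2-Eb2, which are no members, were highest there too, at 1.43 and 1.64 times. Ciita (1.36 times) and March1 (1.15 times) were second highest there.

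**Figure D3:**
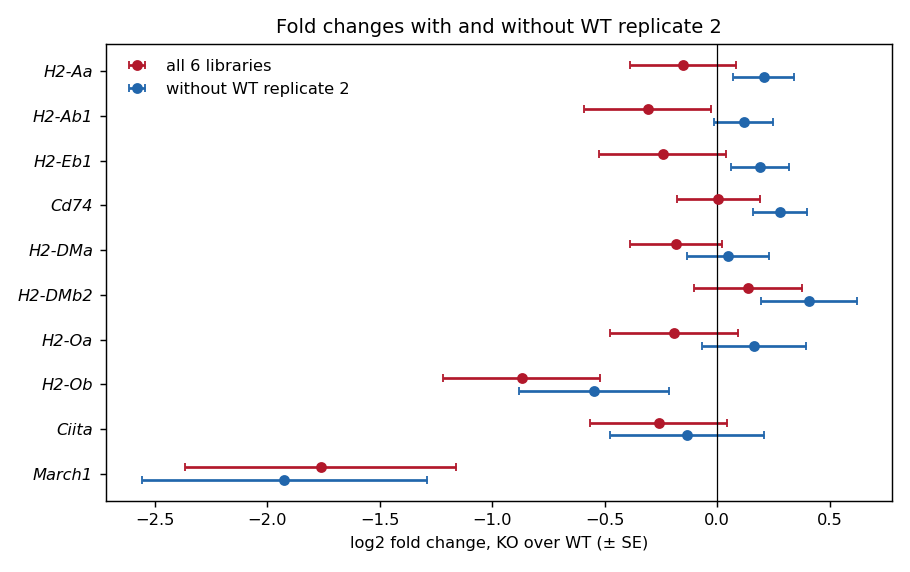
Log2 fold change of KO over WT with its SE from the edgeR fit of all 6 libraries (red) and of the 5 libraries without WT replicate 2 (blue). H2-Ob and March1 stay below 0 in both, Ciita too, and the other 7 genes lie above 0 without that library.

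The same library also had the most transcripts of resident or immature cDC1s. The summed level of 6 such markers was 158, 181 and 190 CPM in KO and 229, 369 and 207 CPM in WT, and all 6 were detected in every library. All 6 had a log2 fold change below 0, with a median of -0.82, where 6208 of 12568 genes tested lay below 0. An unadjusted p under 0.05 (edgeR) was reached by 2 of them, beside 3.06% of all genes tested that were lower in KO at that level. After adjustment 0 of 6 passed. These values include WT replicate 2 and are not given without it. Of the 6, 4 were highest in WT replicate 2, and Naaa and Tlr3 were highest in WT replicate 1. Cd8a alone made 140.5 of the 369 CPM, and Clec9a was at 85.5 CPM there against 83.4 CPM in WT replicate 3. Xcr1, the chemokine receptor of cDC1s, was at 44.6 CPM in WT replicate 2 and at 5.72 to 13.5 CPM elsewhere, and Cd8a was at 30.2 to 54.0 CPM elsewhere. Of B cells, which also make class II, the 9 markers other than Ighm summed to 13.9, 41.0 and 43.2 CPM in KO and 24.8, 46.3 and 21.9 CPM in WT, with Ebf1 at 0 in 1 KO library. Ighm, whose level exceeds the rest of the list together, had 390.3, 110.0 and 86.3 CPM in KO and 149, 255 and 180 CPM in WT. With it the sums were 404, 151 and 130 CPM in KO and 174, 301 and 202 CPM in WT, and KO replicate 1 was highest. The 10 genes of the mature CCR7 programme summed to 18870, 21970 and 24680 CPM in KO and 19000, 18240 and 18810 CPM in WT. Of their log2 fold changes, 9 of 10 were above 0, where 6360 of 12568 genes tested lay above 0. At an unadjusted p under 0.05 (edgeR) 2 of the 10, Cd80 and Socs2, were higher in KO, beside 2.71% of all genes tested. None was past the adjusted threshold. The part of these lists in the level of class II transcripts was not tested.

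**Figure D4:**
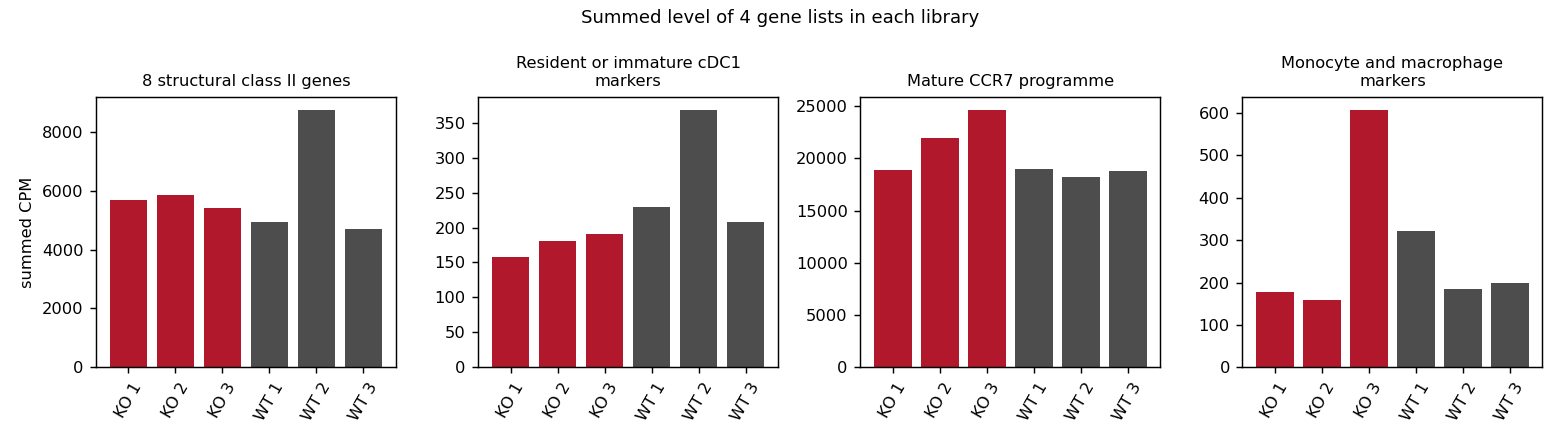
Summed CPM in each library of the 8 structural class II genes and of 3 marker lists, KO bars (red) left of WT bars (grey), each axis from 0. WT 2 has the tallest bar for class II (8771 CPM) and for resident or immature cDC1 markers (369 CPM). KO 3 and WT 1 have the tallest bars for monocyte and macrophage markers, made largely of Lyz2.

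For the proteins that assemble on class II promoters, no gene was called between the groups. The list holds the RFX subunits, the NF-Y subunits, Creb1 and the acetyltransferases Crebbp, Ep300 and Kat2b. Of 10 tested, 0 passed in either direction, 5 lay above 0 and 5 below, and the median log2 fold change was 0.02. The smallest p-values were those of Rfxank, an RFX subunit (40.6 ± 5.27 CPM in KO, 34.8 ± 2.56 CPM in WT, 0.22 ± 0.16 on the log2 scale), Nfyb (0.27 ± 0.21) and Nfyc (-0.20 ± 0.16), both of NF-Y. Rfx5, the DNA-binding subunit of RFX, had 117, 81.6 and 96.0 CPM in KO and 118, 91.1 and 102 CPM in WT, so WT replicate 2 had the lowest level of WT here.

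Factors that act on Ciita transcription gave a median of 0.06, with 0 of 12 passing in either direction, 8 above 0 and 4 below. Bcl6, a transcriptional repressor, had 148, 140.2 and 140.0 CPM in KO and 190, 166 and 218 CPM in WT. All KO libraries lay below all WT libraries, as for 5.19% of all genes tested, and the log2 fold change was -0.42 ± 0.13 with an edgeR adjusted p of 0.834. Irf4, a lymphoid and myeloid interferon regulatory factor, had 104, 123 and 181 CPM in KO and 120, 78.8 and 93.2 CPM in WT (0.47 ± 0.22). Prdm1, which encodes BLIMP1, a repressor of Ciita in plasma cells, had 15.4, 22.8 and 22.3 CPM in KO and 38.5, 24.4 and 21.0 CPM in WT (-0.47 ± 0.26).

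The proteases and cofactors that process antigen and cut the invariant chain had higher values in KO for 8 of 9 genes, and none passed in either direction. The median log2 fold change of the 9 was 0.28, beside 0.00 over all genes tested, of which 6360 of 12568 lay above 0. KO replicate 3, where monocyte and macrophage markers summed to 609 CPM, was the highest of the 6 libraries for 7 of the 9. For how many of all genes tested that library was highest was not counted, so the 7 are not read as a trait of this list. Among them was Ctsd, at 227 CPM against 98.7 to 137 CPM elsewhere. Without KO replicate 3, 6 of 9 lay above 0, with a median of 0.15. The part of monocytes and macrophages was not tested. Lgmn, the asparaginyl endopeptidase legumain, had 419, 467 and 519 CPM in KO and 409, 361 and 376 CPM in WT. Ctsz, a carboxypeptidase, had 1054, 1287 and 1443 CPM in KO and 1049, 1028 and 1048 CPM in WT. For both genes every KO library lay above every WT library, as for 5.46% of all genes tested, with log2 fold changes of 0.29 ± 0.13 and 0.28 ± 0.13 and an edgeR adjusted p of 0.834 each. Cst3, the inhibitor cystatin C, had a log2 fold change of 0.28 ± 0.16. Ctss, which makes the last cut of the invariant chain in dendritic cells, had 632, 791 and 817 CPM in KO and 643, 682 and 593 CPM in WT (0.22 ± 0.13). Ctsl, its counterpart in thymic epithelium, was at 84.4 CPM in KO replicate 3 and at 9.34 to 21.8 CPM in the other 5 libraries, for a log2 fold change of 1.04 ± 1.02, and of -0.67 ± 0.32 without KO replicate 3.

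Other genes of class II ubiquitination and turnover showed no call in either direction among 7 tested, with a median of 0.05, 4 above 0 and 3 below. March8, the closest relative of March1, had 6.59, 16.4 and 19.1 CPM in KO and 24.0, 10.5 and 19.1 CPM in WT (-0.38 ± 0.39). Cd83, whose protein counters MARCH1, was at 2245 ± 96.1 CPM in KO and 2110 ± 184 CPM in WT (0.09 ± 0.12), and Ube2d3, a ubiquitin-conjugating enzyme, had 0.12 ± 0.12. Cd86, whose protein is a further MARCH1 substrate, had 257, 406 and 524 CPM in KO and 312, 264 and 328 CPM in WT.

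**Figure D5:**
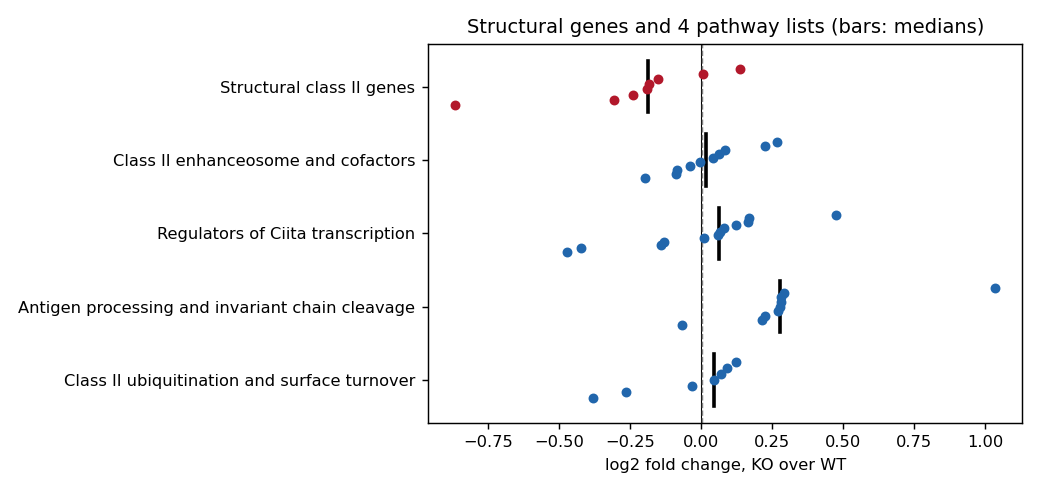
Log2 fold change of KO over WT for each structural class II gene (red) and each gene of the 4 pathway lists (blue), with black bars at the medians, a solid line at 0 and a dashed grey line at the median of all genes tested. The antigen-processing list has its median at 0.28, with Ctsl far to the right at 1.04, and the structural genes at -0.19, with H2-Ob far to the left at -0.87.

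Genes with a pattern like that of the members were ranked among 6345 protein-coding genes by the root mean square difference of centred log2 CPM over the 6 libraries. Nearest to the structural mean were Nt5c3 (0.075), Rsad2 (0.081), Ube2s (0.097), Rpl18 (0.10) and Ubb (0.11), beside a median of 0.37 over all candidates. Rsad2, the antiviral protein viperin, had 94.5, 95.8 and 87.2 CPM in KO and 83.2, 157 and 73.6 CPM in WT, so it too was highest in WT replicate 2. Nearest to Ciita were Ibtk (0.15), D2hgdh (0.15), Socs6 (0.19), Rac2 (0.21) and Ctsa (0.21), beside a median of 0.48. Nearest to March1 were Plbd1 (0.59), Naaa (0.61), Csf1r (0.65), Zfp568 (0.67) and Clcn4 (0.68), beside a median of 1.04. March1 itself lies below the 20 CPM that candidates had to reach. Plbd1, a lysosomal phospholipase-like protein of myeloid cells, had 34.4, 59.2 and 76.8 CPM in KO and 98.7, 118 and 71.4 CPM in WT.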

How the data were processed

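Raw counts per Ensembl gene, not normalized, were deposited by the authors for 6 libraries. The submitters' processing notes list HISAT2 2.0.5, HTSeq and mm10. How reads were counted by strand, or where they matched several genes, and with which annotation, is not stated in them. Columns were matched to samples by the library label in each description. GENCODE M21 (mm10) named 32235 of 32285 features. Counts were filtered (filterByExpr, 12568 genes kept), TMM-scaled and compared in edgeR 4.0.16 under R 4.3.3 (glmQLFit, robust, legacy=FALSE; Benjamini-Hochberg, 0.05), KO against WT, all 6 libraries, no covariate. CPM values are TMM-normalized, and exon unions gave lengths. The SE is the size of the log2 fold change over the root of F. DESeq2 1.42.0, limma-voom (3.58.1) and other settings were alternatives.

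The members and lists were chosen with earlier results of these data known. Named genes were the members, 3 genes per pathway list by smallest p, and 5 per pattern by likeness (20 CPM or more); others, such as Rfx5, Ctss, Ctsl and Cd86, were chosen after their values were seen. No 2 libraries agreed within sampling noise.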

Additional observations from a re-analysis of the deposited data

How the results depend on the processing

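None of the 10 genes and none of the 38 pathway genes passed an adjusted p of 0.05 under any of the 17 alternatives run, which limits every comparison above to values that were not called. Over all genes the count called was 0, and it was 3 without an expression filter, 10 with DESeq2 and 0 to 7 when 1 library was left out. March1, H2-Ob and Ciita kept a negative log2 fold change under all 17 alternatives, at -2.22 to -1.17, -1.18 to -0.55 and -0.52 to -0.05. The structural median was -0.36 to 0.18 when 1 library was left out, and only without WT replicate 2 was it above 0. Leaving out 1 library gave log2 fold changes of -0.31 to 0.21 for H2-Aa, -0.52 to 0.12 for H2-Ab1, -0.43 to 0.19 for H2-Eb1, -0.13 to 0.28 for Cd74, -0.29 to 0.047 for H2-DMa, -0.043 to 0.41 for H2-DMb2 and -0.41 to 0.16 for H2-Oa. Cd74 was at -0.0037 with RLE scaling, -0.0076 with upper-quartile scaling, -0.0060 with a filter of 1 CPM in 3 libraries and -0.0039 with DESeq2. Without WT replicate 1 and KO replicate 3 together, chosen after the data were examined, Cd74 was at -0.12 and H2-DMb2 at -0.16. The cause of these sign changes was not tested.

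Nothing in the labels says that same-numbered KO and WT libraries form pairs. Their correlations of deviations were 0.01, 0.03 and -0.00, and not every library correlated best with its own number. With 3 libraries per group such values cannot show whether these libraries were handled together. With the replicate number as a block, 0 genes were called, the structural median was -0.17 and March1 was at -1.71 ± 0.61. March1 rests on few counts, 9 of them in 1 KO library.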
